A study of Homo sapiens with 6 samples.

Results

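The p53 pathway and target genes are 42 gene symbols that encode regulators of the tumour suppressor p53 and genes that p53 is known to activate, and they were followed here in cells depleted of LSD1. The symbols were looked up by name in the deposited 6-library gene table, which holds 15585 genes. A row was found for 40 symbols. The expression of SPATA18 was not analysed here, and C12orf5 is an older symbol of TIGAR, which was found under its present name. Of these 40 genes, 36 had enough reads to be tested. The members were sorted by function into feedback on p53, cell cycle arrest, apoptosis, DNA repair, metabolism and other targets.

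RNA was sequenced from cells labelled U2OS, a human osteosarcoma line, 48 h after siRNA transfection, in 3 libraries of cells given a control siRNA (siCTR) and 3 of cells given siRNA against LSD1 (siLSD1). No damaging agent or other treatment is given for either group, and both groups were transfected. LSD1, encoded by KDM1A, is a demethylase that removes methyl groups from histone H3 lysine 4 and from some other proteins, p53 among them. The sources used here do not say which LSD1 siRNA was transfected, so loss of LSD1 and effects of an siRNA on other transcripts cannot be told apart. Nothing in the labels says that the libraries came from separate cultures, and p-values then measure only the spread between these samples, which may be technical.

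p53 is a transcription factor that MDM2 keeps scarce in unstressed cells by marking it for degradation. After DNA damage or other stress, p53 accumulates and binds DNA as a tetramer at sites near its targets, where it raises transcription of genes for arrest, death, repair and metabolism. MDM2 is itself a target, which closes a negative feedback loop. The same genes also have a basal level of transcription in unstressed cells, part of which depends on p53.

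Each library held between 12513511 and 13561344 counted reads, with a biological coefficient of variation of 12.6% between replicates. The groups were tested gene by gene in edgeR (quasi-likelihood F-test), and p-values were adjusted by the Benjamini-Hochberg method over the 11844 genes that passed the filter on low counts, and the test used for a call was an adjusted p under 0.05. An exact permutation test over 3 against 3 libraries cannot give a two-sided p below 0.1, so no such test was used for single genes. KDM1A fell from 489 ± 16.4 to 90.4 ± 6.92 CPM (reads scaled to a common library size with TMM; SD, n = 3), or 18.5% of the siCTR mean. KDM1A (chromosome 1, 23019443 to 23083689, plus strand) had a log2 fold change of -2.44 and an adjusted p of 2.27e-07. siCTR replicate 2 stood apart from the other siCTR libraries, with a chi-square per gene of 33.0 and 25.5 against replicates 1 and 3, compared with 7.73 between replicates 1 and 3. Among the siLSD1 libraries this value was 7.18 between replicates 1 and 2, 11.6 between 2 and 3 and 26.1 between 1 and 3. All fold changes below are log2 values of siLSD1 against siCTR, and all levels are TMM-scaled CPM unless reads or FPKM are named.

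The label of the cells was checked against marker genes. Among osteoblast markers, RUNX2 had 0 to 4 reads per library, SPARC had 0 to 3 and COL1A1 had 122 to 200. The mesenchymal marker VIM had 9487 to 11615 reads. Among epithelial markers, EPCAM had 28 to 41 reads, CDH1 had 66 to 154 and KRT19 had 0 to 4. Other epithelial keratins, which were chosen after their values were seen, were abundant, with 2064 CPM for KRT8 and 1122 CPM for KRT18 in siCTR. PTPRC, a leukocyte marker, had 0 to 1 reads, and PECAM1, an endothelial marker, had 0 to 3. TERT, the catalytic subunit of telomerase, had 71 to 109 reads, although U2OS is known for maintaining telomeres without telomerase. CDKN2A, which encodes the MDM2 antagonist p14ARF beside p16, had 1841 to 2883 reads. The near absence of RUNX2 and SPARC, the abundant KRT8 and KRT18 and the TERT reads go against the label. The abundant VIM and the few EPCAM, CDH1 and KRT19 reads do not, and COL1A1 was detected. The study also used other cell lines, and these data do not establish that the libraries come from U2OS cells. Since p53 activity differs between cell lines, the levels of p53 targets given here hold for the cells in these libraries, which are called by their label only for lack of another source. The functional state of the p53 protein was not measured. Of the markers, CDH1 was higher in all siLSD1 libraries, at 10.5 ± 1.05 against 6.15 ± 1.21 CPM, with a fold change of 0.77 and an adjusted p of 0.0699. KRT18 went the other way and was lower in all siLSD1 libraries, at -0.32 with an adjusted p of 0.268, and TERT was also lower in all of them, at -0.41 with an adjusted p of 0.344. KRT8 was at -0.14 and EPCAM at -0.06, both with overlapping groups. The part of these markers in the results was not tested.

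In siLSD1, the p53 genes lay lower on the whole than the other genes. The median fold change of the 36 tested genes was -0.20, compared with -0.01 over all genes tested. Of the 36, 28 were below 0 and 8 above, while over all genes tested 6246 were below 0 and 5598 above. CDKN1A and ZMAT3 fell and PERP rose at the adjusted threshold. These are 2 genes lower (5.56%, against 0.371% of all genes tested) and 1 gene higher (2.78%, against 1.07%), or 8.33% in either direction against a background of 1.44%. At an unadjusted p under 0.05, 13 of the 36 were lower (36.1%, against 6.55%) and 3 were higher (8.33%, against 7.48%), in all 16 genes (44.4%, against 14.0%). The 3 siLSD1 libraries were all below the 3 siCTR libraries for 13 genes (36.1%, against 9.97%), and all above for 4 (11.1%, against 11.4%). The downward share was thus several times its background, while the upward share at the unadjusted threshold was near its background. The members were chosen with earlier results of these data known, so these shares only describe the list. The fold changes ran from -0.95 for TIGAR to 0.73 for PERP. The remaining 20 genes had fold changes between -0.34 and 0.37, and the 95% interval of the tested p53 genes extended a median of 0.29 to either side. After the libraries were corrected for the GC content and length of genes, 14 of the 36 genes passed the adjusted threshold, against 7.82% of all genes. Of these, 11 were lower (against 3.25% of all genes), namely CDKN1A, ZMAT3, CCNG1, FAS, FDXR, NINJ1, PIDD1, RPS27L, SESN1, TIGAR and TRIAP1, and 3 were higher (against 4.57%), namely PERP, PLK2 and XPC. With DESeq2, GDF15 and SESN1 passed in addition to CDKN1A and ZMAT3, for 4 lower (against 0.954%) and 1 higher (against 1.77%). Without siCTR replicate 2, the adjusted calls were CDKN1A and PERP, and 0.733% of all genes were called, against 1.44% with all libraries. ZMAT3 lost its call whenever 1 library was left out, whichever it was. In bulk RNA, fewer cells of a type and less RNA per cell cannot be told apart.

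**Figure D1:**
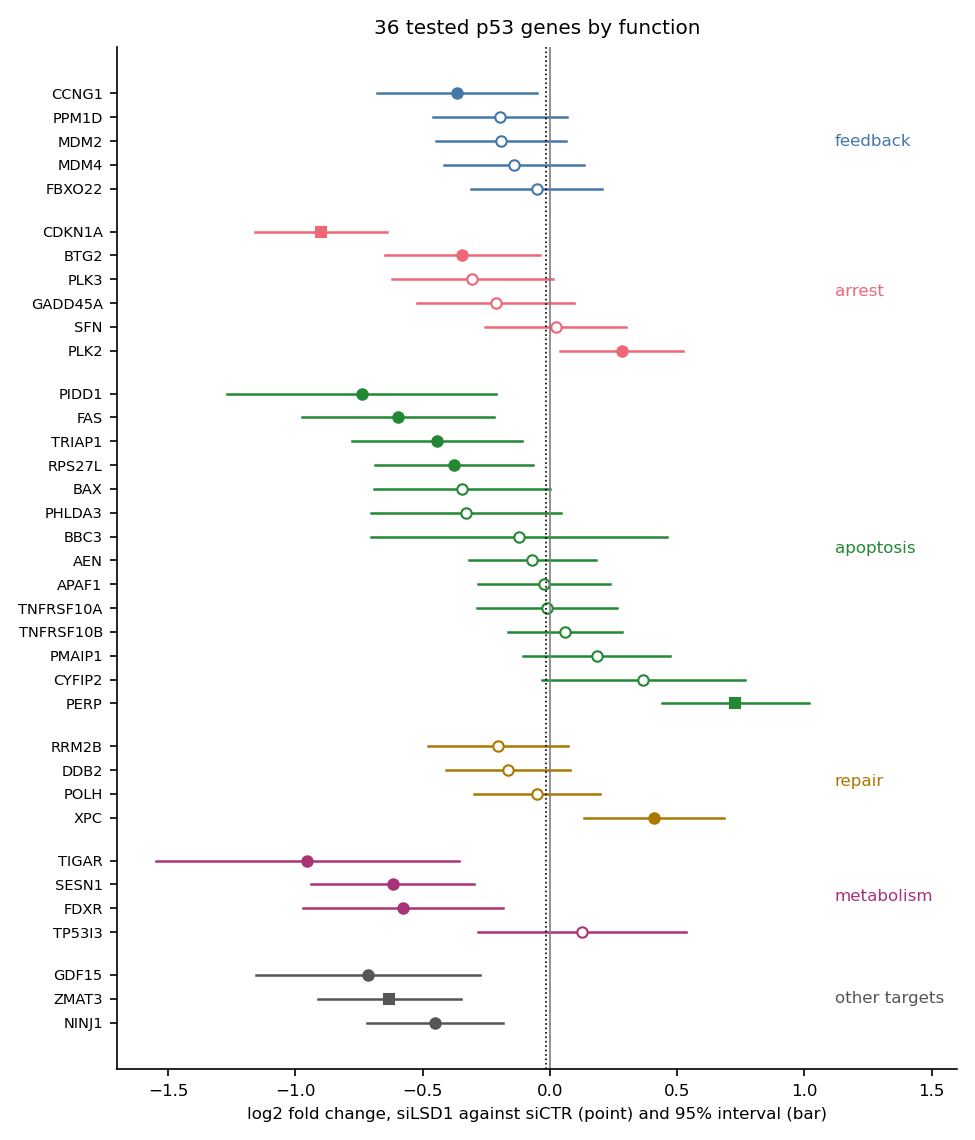
Log2 fold change of siLSD1 against siCTR for the 36 tested p53 genes, by function, with 95% intervals from edgeR. Squares mark an adjusted p under 0.05, other filled points an unadjusted p under 0.05, and the dotted line the median of all genes tested (-0.01). CDKN1A and ZMAT3 lie at -0.90 and -0.63, and PERP lies at 0.73.

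The lower level was shared by the siLSD1 libraries and was not that of a single one. Against the siCTR mean, the median log2 ratio of the 36 genes was -0.147, -0.240 and -0.184 in siLSD1 replicates 1, 2 and 3. The same median was -0.0195, 0.0575 and -0.0476 in siCTR replicates 1, 2 and 3. Every siLSD1 library thus lay below every siCTR library in this median, and over all genes tested it stayed between -0.0140 and 0.00486 in each library. The number of p53 genes below the siCTR mean was 24, 28 and 26 of 36 in the siLSD1 libraries, and 18, 14 and 23 in the siCTR libraries. By this count siCTR replicate 3 was close to siLSD1 replicate 1. The siCTR libraries are part of the mean they are compared with, and the count was not made over all genes.

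**Figure D2:**
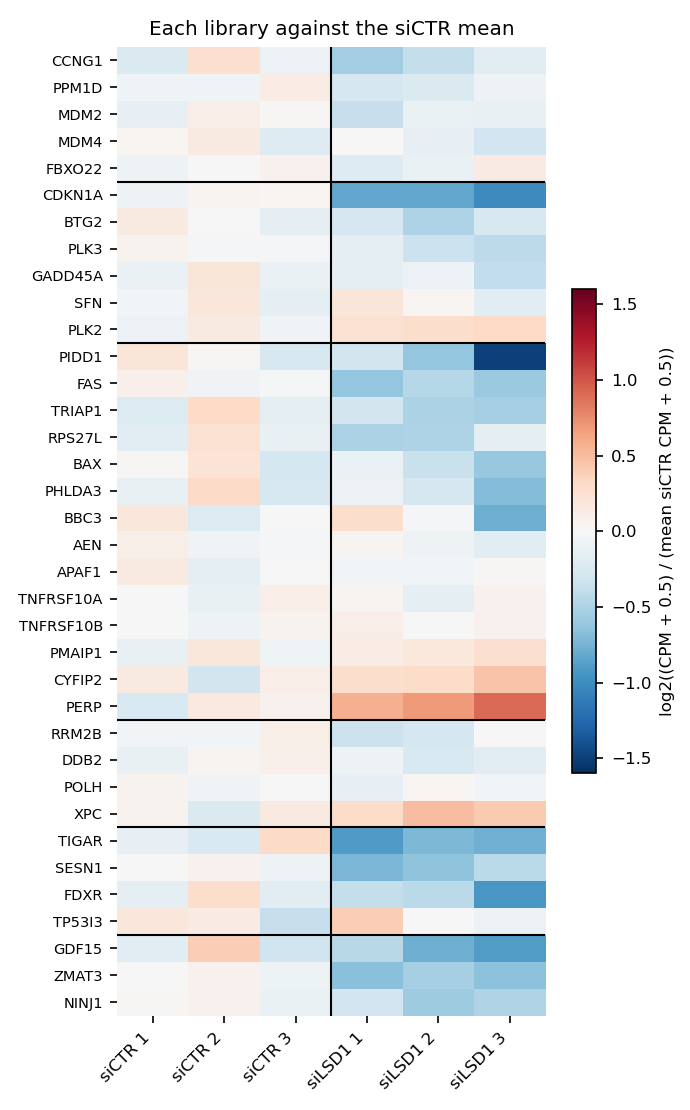
Log2 ratio of each library to the siCTR mean (pseudocount 0.5 CPM) for the 36 tested p53 genes, in rows grouped by function from feedback at the top to other targets at the bottom, with columns for the 6 libraries. Blue cells are below the siCTR mean and red cells above. CDKN1A, SESN1 and ZMAT3 are blue in all 3 siLSD1 libraries and PERP is red, while PIDD1 is darkest in siLSD1 replicate 3.

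To show where p53 could bind near these genes, the RefSeq promoter windows (GRCh38.p14, 250 bases before to 50 after a gene's start) were searched for the p53 consensus, a pair of 10-base motifs with at most 1 base between them. The consensus reads the same on both strands. A match had at least 17 of 20 positions as in the consensus, with the fixed C and G of each motif present. Such a match was found in 9 of 33 p53 genes with a window (27.3%) and in 795 of 27305 genes with a window (2.91%). Over single windows, the shares were 10 of 48 (20.8%) and 837 of 35116 (2.38%). The other 9 symbols had no window in the table. The matches are printed because they are the best in the windows of these genes, 5′ to 3′ on the strand of the gene, with the match in capitals. A match is a description of the sequence and was not tested for binding.
DDB2: gtttGAACAAGCCCTGGGCATGTTTggcg
AEN: gagccGGGCTTGCCCGGGCATGTGGgagct
FAS: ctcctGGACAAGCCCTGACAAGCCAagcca
MDM2: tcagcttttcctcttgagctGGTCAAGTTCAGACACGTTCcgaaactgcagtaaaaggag
FDXR: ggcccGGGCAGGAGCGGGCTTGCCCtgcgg
GDF15: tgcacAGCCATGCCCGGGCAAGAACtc
PMAIP1: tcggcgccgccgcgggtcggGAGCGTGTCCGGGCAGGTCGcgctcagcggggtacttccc
RPS27L: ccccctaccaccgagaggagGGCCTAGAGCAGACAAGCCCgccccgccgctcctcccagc
SESN1: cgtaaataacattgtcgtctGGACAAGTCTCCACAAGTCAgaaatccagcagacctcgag

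The DDB2 stretch lies at chr11:47214975-47215003 on the plus strand, in an exon of DDB2, and matched at 20 of 20 positions. The AEN stretch (chr15:88621301-88621330, plus strand) lies upstream of the gene, and the FAS stretch (chr10:88991304-88991333, plus strand) lies in an exon, each with 18 positions matching. The MDM2 stretch (chr12:68808903-68808962, plus strand) lies in an intron, at an internal start of the gene, and also matched at 18. The remaining stretches matched at 17 positions. They lie in exons for FDXR (chr17:74872991-74873020, minus strand) and GDF15 (chr19:18386181-18386207, plus strand). PMAIP1 has its stretch upstream (chr18:59899791-59899850, plus strand), and RPS27L (chr15:63157507-63157566, minus strand) and SESN1 (chr6:109008998-109009057, minus strand) have theirs in introns. Of the 9 genes, FAS, FDXR, GDF15, RPS27L and SESN1 were lower in siLSD1 at an unadjusted p under 0.05, or 55.6% against 36.1% of the tested p53 genes and 6.55% of all genes, and none of the 9 passed the adjusted threshold in the uncorrected edgeR fit. FAS, FDXR, RPS27L and SESN1 passed it with the GC and length correction, against 3.25% of all genes lower, and GDF15 and SESN1 with DESeq2, against 0.954% lower. The best matches in the windows of CDKN1A, ZMAT3 and PERP had 15, 16 and 15 of 20 positions, which says only that a closer match is not in these windows.

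The feedback regulators lay slightly lower, and none passed the adjusted test. All 5 were below 0, with a median of -0.19. MDM2, the ubiquitin ligase that degrades p53, was at 136, 160 and 152 CPM in siCTR replicates 1 to 3 and at 116, 139 and 138 CPM in siLSD1. The groups overlapped, since siCTR replicate 1 was below siLSD1 replicates 2 and 3. The fold change was -0.19, with a 95% interval from -0.45 to 0.06 and an adjusted p of 0.493, and it was -0.11 without siLSD1 replicate 1. MDM4, the MDM2 relative that blocks the activation domain of p53, had overlapping groups and a fold change of -0.14 with an adjusted p of 0.650. Leaving out siCTR replicate 2 brought the fold change of MDM4 to -0.058, leaving out siCTR replicate 3 to -0.23 and leaving out siLSD1 replicate 3 to -0.064. PPM1D, the phosphatase that switches off p53 and its kinases, was at 40.1, 40.3 and 45.8 CPM in siCTR and at 34.9, 35.6 and 39.7 CPM in siLSD1. Its groups did not overlap, and the difference did not pass the test, with a fold change of -0.19 and an adjusted p of 0.50. CCNG1, cyclin G1, which recruits a phosphatase to MDM2, was at 122, 173 and 134 CPM in siCTR and at 97.2, 110 and 126 CPM in siLSD1. Its fold change of -0.37 had an unadjusted p of 0.0258 and an adjusted p of 0.270, and was -0.20 without siCTR replicate 2, the highest library. FBXO22, an F-box subunit of a ubiquitin ligase, was at -0.05.

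Among the arrest genes, the cyclin-dependent kinase inhibitor p21, encoded by CDKN1A (chromosome 6, 36676460 to 36687337, plus strand), fell to 53.5% of the control. CDKN1A was at 51.2, 56.2 and 55.7 CPM in siCTR and at 30.4, 30.3 and 26.6 CPM in siLSD1, from 359 to 749 reads per library. The lowest siCTR library was well above the highest siLSD1 library. The mean went from 54.4 ± 2.75 to 29.1 ± 2.17 CPM (SD, n = 3). The fold change was -0.90, with an SE of 0.12, a 95% interval from -1.16 to -0.64, a p of 4.82e-06 and an adjusted p of 0.00356. CDKN1A passed the adjusted threshold under all 13 alternative settings, with adjusted p-values up to 0.0220.

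None of the other arrest genes passed the adjusted threshold. The 6 had a median of -0.26, with all siLSD1 libraries below all siCTR libraries for CDKN1A, BTG2 and PLK3 (3 of 6, against 9.97% of all genes) and above for PLK2 (1 of 6, against 11.4%). BTG2, an antiproliferative adaptor of the CCR4-NOT deadenylase, was at 25.3, 22.7 and 20.4 CPM in siCTR and at 18.9, 16.1 and 19.0 CPM in siLSD1. BTG2 was lower in all siLSD1 libraries, at a fold change of -0.34 with an unadjusted p of 0.0305 and an adjusted p of 0.291. PLK2, polo-like kinase 2, had the opposite sign, with 84.7, 101 and 87.2 CPM in siCTR and 107, 110 and 114 CPM in siLSD1. PLK2 was higher in all of them, at 0.28 with an unadjusted p of 0.0256 and an adjusted p of 0.270. The related kinase gene PLK3 was at -0.30 (unadjusted p 0.0572), with all siLSD1 libraries lower. GADD45A, a growth arrest and DNA damage protein, was at -0.21 and the 14-3-3 protein gene SFN was at 0.02, both with overlapping groups.

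The apoptosis genes had fold changes of both signs, with a median of -0.10 over 14 tested genes, 10 below 0 and 4 above. PERP (chromosome 6, 138088505 to 138107419, minus strand), a membrane protein of desmosomes that has been linked to p53-dependent apoptosis, rose to 166% of the control. PERP was at 113, 149 and 140 CPM in siCTR and at 199, 216 and 251 CPM in siLSD1. Every siLSD1 library was above every siCTR library, and the means were 134 ± 19.0 and 222 ± 26.7 CPM (SD, n = 3). The fold change was 0.73, with an SE of 0.13, a p of 0.000112 and an adjusted p of 0.0172. The adjusted p of PERP was 0.0587 without siCTR replicate 3 and 0.0629 without siLSD1 replicate 2.

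None of the receptors, BCL2 family members or other apoptosis genes passed the adjusted threshold. The death receptor gene FAS was at 8.93, 8.10 and 8.25 CPM in siCTR and at 5.29, 6.02 and 5.41 CPM in siLSD1. The groups of FAS were clearly apart, with 71 to 116 reads per library, and the fold change was -0.60 with an unadjusted p of 0.00455 and an adjusted p of 0.131. The TRAIL receptor genes TNFRSF10B and TNFRSF10A were at 0.06 and -0.01, with 95% intervals from -0.17 to 0.28 and from -0.28 to 0.26. BAX, the pore-forming member of the BCL2 family, was at 50, 57.9 and 40.6 CPM in siCTR and at 45.8, 38.6 and 32.5 CPM in siLSD1. Its groups overlapped, and the fold change was -0.34 with an adjusted p of 0.357, or -0.22 without siCTR replicate 2 and -0.23 without siLSD1 replicate 3. BBC3, which encodes the BH3-only protein PUMA, was at 6.55, 4.83 and 5.73 CPM in siCTR and at 7, 5.62 and 3.11 CPM in siLSD1, and its sign depended on siLSD1 replicate 3, the lowest library. The fold change of BBC3 was -0.12 with all libraries and 0.15 without that replicate. PMAIP1, which encodes the BH3-only protein NOXA, was at 0.18, and the apoptosome scaffold gene APAF1 was at -0.02.

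PIDD1, a scaffold for caspase-2 activation, was at 27.4, 24.3 and 20 CPM in siCTR and at 19.4, 15.3 and 8.16 CPM in siLSD1. Its siLSD1 libraries were all lower but widely spread. The fold change of PIDD1 was -0.74 with an unadjusted p of 0.00988 and an adjusted p of 0.185, and it was -0.46 without siLSD1 replicate 3. TRIAP1, an antiapoptotic partner in mitochondrial lipid transfer, was at 39.0, 56.5 and 40.7 CPM in siCTR and at 37.0, 31.9 and 31.3 CPM in siLSD1. TRIAP1 was lower in each siLSD1 library, at -0.44 with an unadjusted p of 0.0135 and an adjusted p of 0.211, and at -0.25 without siCTR replicate 2. RPS27L, a paralog of the ribosomal protein gene RPS27 with which it could share reads, was at 83.1, 110 and 86.0 CPM in siCTR and at 65.2, 66.2 and 83.9 CPM in siLSD1. The groups of RPS27L overlapped, and the fold change was -0.38 with an unadjusted p of 0.0215 and an adjusted p of 0.255, or -0.23 without siCTR replicate 2. PHLDA3, which restrains AKT, was at -0.33 and AEN, a nuclease, was at -0.07, and CYFIP2, a subunit of the WAVE complex, was at 0.37. The other apoptosis members were below the filter, with 3 to 8 reads per library for TP53INP1, 0 to 2 for EDA2R and 0 to 1 for TP53I11.

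**Figure D3:**
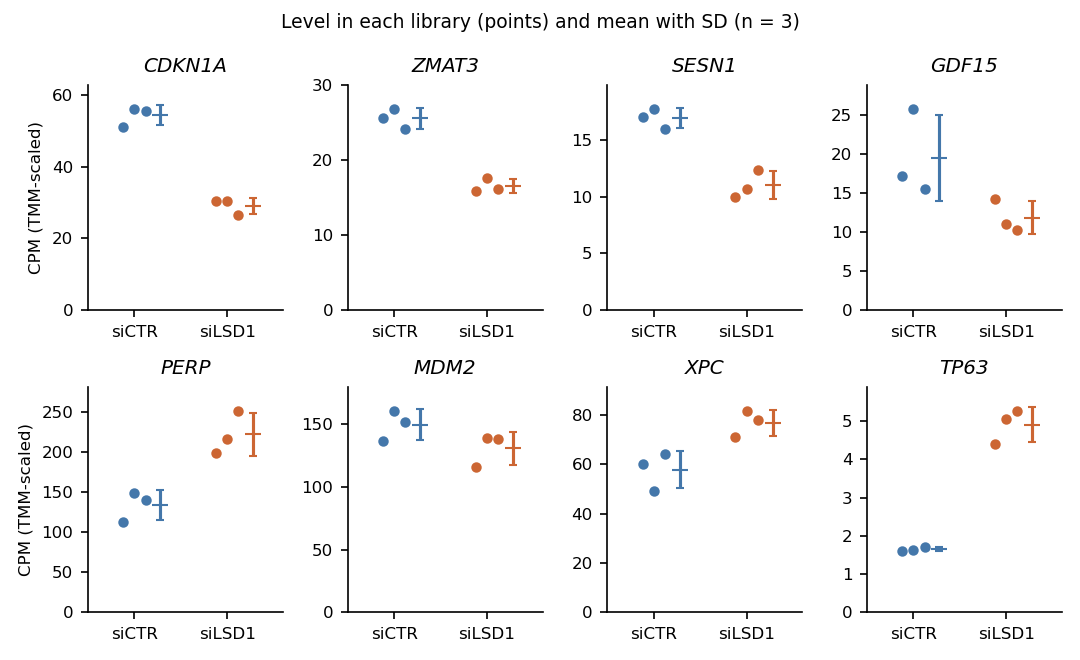
Level of 8 genes in TMM-scaled CPM (vertical axis, from 0) in the 3 siCTR and 3 siLSD1 libraries (points), with the mean and SD beside them. The groups do not overlap except for MDM2, and XPC is at 57.9 ± 7.65 CPM in siCTR and 76.8 ± 5.28 CPM in siLSD1.

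Of the DNA repair genes, the damage sensor gene XPC stood out with a higher level and the other members differed little, for a median of -0.11 over 4 genes. XPC was at 60.1, 49.4 and 64.2 CPM in siCTR and at 71.2, 81.6 and 77.8 CPM in siLSD1. The groups were apart, and the fold change of XPC was 0.41 with an unadjusted p of 0.00699 and an adjusted p of 0.162. DDB2, which acts with XPC in recognising damage for nucleotide excision repair, was at -0.17, with 76.0, 84.9 and 87.2 CPM in siCTR and 78.1, 69.8 and 73.2 CPM in siLSD1. These groups overlapped. POLH, the translesion polymerase eta, was at -0.05, and RRM2B, the p53-inducible subunit of ribonucleotide reductase, was at -0.20.

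None of the metabolism genes passed the adjusted threshold. The 4 tested genes had a median of -0.60, with 3 below 0 and 1, TP53I3, above. SESN1, sestrin 1, which restrains mTORC1, was at 17, 17.8 and 16.0 CPM in siCTR and at 9.99, 10.7 and 12.4 CPM in siLSD1. The groups of SESN1 did not overlap, and the fold change was -0.62 with an unadjusted p of 0.00114 and an adjusted p of 0.0636. TIGAR, a fructose bisphosphatase that slows glycolysis, had only 22 to 60 reads per library and was at 3.16, 2.88 and 4.46 CPM in siCTR and at 1.64, 1.93 and 1.85 CPM in siLSD1. Its fold change of -0.95 had a wide 95% interval, from -1.55 to -0.36, with an unadjusted p of 0.00425 and an adjusted p of 0.126. With a second set of deposited counts, the fold change of TIGAR was -0.68 at an adjusted p of 0.242. With 1 library left out, the fold change of TIGAR ran from -1.07 to -0.74. FDXR, the ferredoxin reductase of mitochondrial electron transfer, was at 22.5, 30.7 and 22.0 CPM in siCTR and at 19.1, 18.4 and 12.9 CPM in siLSD1. All siLSD1 libraries of FDXR were lower, at -0.58 with an unadjusted p of 0.00724 and an adjusted p of 0.164. TP53I3, a quinone oxidoreductase, was at 0.13 with overlapping groups.

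The 3 tested genes among the other targets all lay lower in every siLSD1 library (against 9.97% of all genes), with a median of -0.63. Of these, only ZMAT3 passed the adjusted threshold. ZMAT3 (chromosome 3, 178960121 to 179072215, minus strand), an RNA-binding zinc finger protein that regulates splicing, fell to 64.6% of the control. ZMAT3 was at 25.6, 26.9 and 24.2 CPM in siCTR and at 15.9, 17.6 and 16.1 CPM in siLSD1. The groups were tight and far apart, and the fold change was -0.63 with an SE of 0.13, a p of 0.000328 and an adjusted p of 0.0317. The adjusted p of ZMAT3 was above the threshold whenever 1 library was left out, between 0.0748 and 0.134, at fold changes between -0.67 and -0.59. GDF15, a secreted stress cytokine, was at 17.2, 25.8 and 15.5 CPM in siCTR and at 14.2, 11.1 and 10.2 CPM in siLSD1. GDF15 was lower in each siLSD1 library, at -0.72 with an unadjusted p of 0.00393 and an adjusted p of 0.122, and at -0.46 without siCTR replicate 2. NINJ1, a membrane protein of plasma membrane rupture in dying cells, was at 48.3, 50 and 44.2 CPM in siCTR and at 38.4, 31.9 and 34.0 CPM in siLSD1. Its groups did not overlap, and the fold change was -0.45 with an unadjusted p of 0.00301 and an adjusted p of 0.108. TRIM22, a tripartite motif protein, was under the filter, with 6 to 10 reads per library in siCTR and 3 to 4 in siLSD1.

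Levels were compared between genes in FPKM, which is scaled to gene length. In siCTR, the most abundant p53 gene was SFN with 112 ± 12 FPKM, followed by CCNG1 with 57.9 ± 10.1 and DDB2 with 44.1 ± 2.83 (SD, n = 3). SFN was above CCNG1 by more than their spread, but TRIAP1 (38.3 ± 7.69), TNFRSF10B (37.5 ± 2.15), NINJ1 (37.0 ± 2.19), PHLDA3 (35.6 ± 7.18) and BAX (35.0 ± 5.88) could not be ordered. DDB2 could not be ordered against TRIAP1 or PHLDA3. CDKN1A was 12th with 21.6 ± 0.885 FPKM and could not be ordered against AEN with 21.8 ± 1.47. MDM2 was 18th with 11.7 ± 0.831 FPKM and could not be ordered against RPS27L at 11.7 ± 1.74. The order depends on the gene lengths that the authors used, which were not checked. In CPM, which is not scaled to length, MDM2 was at 149 and RPS27L at 93.2 in siCTR. The genes that were lower in siLSD1 at an unadjusted p under 0.05 lay along most of this range, from CCNG1 to TIGAR, which with 0.926 ± 0.226 FPKM could not be ordered against CYFIP2 (1.01 ± 0.181) at the low end of the tested genes.

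The regulators upstream of these genes were called in the upward direction or not at all. Of 27 genes in a list of p53 core factors and regulators, 24 were tested and had a median of 0.07, with 1 higher (4.17%, against 1.07% of all genes) and 0 lower (against 0.371%) at the adjusted threshold by edgeR. At an unadjusted p under 0.05, 3 were higher (12.5%, against 7.48%) and 0 lower (against 6.55%). With the GC and length correction, 4 were higher and 0 lower at the adjusted threshold, against 4.57% and 3.25% of all genes. With DESeq2 2 were higher and 0 lower, against 1.77% and 0.954%. TP63 (chromosome 3, 189631389 to 189897276, plus strand), which encodes a relative of p53 that recognises similar DNA sites, rose from 1.65 ± 0.0494 to 4.91 ± 0.453 CPM (SD, n = 3). TP63 had 21, 21 and 23 reads in siCTR and 59, 63 and 71 reads in siLSD1, so the groups were far apart at a low level, and the fold change was 1.56 with an SE of 0.24 and an adjusted p of 0.00727. TP63 passed the threshold under all 13 alternative settings. SETD7, a lysine methyltransferase that acts on p53, was at 0.47 with an unadjusted p of 0.00314 and an adjusted p of 0.110. CDKN2A was at -0.06 with overlapping groups, and its sign turned when siCTR replicate 2 or siLSD1 replicate 3 was left out, at 0.13 and 0.080.

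A further list of 60 p53 targets, none of which is among the 42 symbols, had 51 tested genes with a median of -0.06. Of these, 29 were below 0 and 22 above, against 6246 and 5598 over all genes tested. At the adjusted threshold by edgeR, 3 were higher (5.88%, against 1.07% of all genes) and 0 lower (against 0.371%). At an unadjusted p under 0.05, 7 were higher (13.7%, against 7.48%) and 3 lower (5.88%, against 6.55%), so the lower share was near its background. DESeq2 also gave 3 higher (against 1.77%) and 0 lower (against 0.954%) at the adjusted threshold. With the GC and length correction, 4 were higher and 3 lower at the adjusted threshold (13.7%, against 7.82%), and the lower genes were NOTCH1, TRAF4 and CMBL, which were named after their values were seen. IGFBP3, a secreted binding protein for insulin-like growth factors, rose from 20.8 ± 2.19 to 41.9 ± 4.13 CPM (SD, n = 3), at 1.01 with an adjusted p of 0.00356. THBS1, the matrix glycoprotein thrombospondin 1, rose at 0.51 with an adjusted p of 0.0341, and lost that call in every fit with 1 library left out, with adjusted p-values of 0.0552 to 0.239. The cause of the higher IGFBP3 and THBS1 was not tested.

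p21 is known to bring about repression of cell cycle genes through the DREAM complex. Of 28 genes repressed on this route, 27 were tested, and 0 passed an adjusted p (against 1.44% of all genes) or an unadjusted p (against 14.0%) of 0.05 by edgeR in either direction, and 0 passed the adjusted threshold with DESeq2. With the GC and length correction, 1 passed the adjusted threshold (3.70%, against 7.82% of all genes), the mitotic kinase gene AURKB, at 0.25 with an adjusted p of 0.0473, which was named after its values were seen. Their median was -0.01, and they ranged from -0.24 to 0.22. The gene with the lowest p was FOXM1, a transcription factor of the G2/M genes, at 0.22 with an unadjusted p of 0.0688 and an adjusted p of 0.403. All siLSD1 libraries of FOXM1 were higher, at 274 ± 14.1 against 236 ± 19.7 CPM (SD, n = 3).

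**Figure D4:**
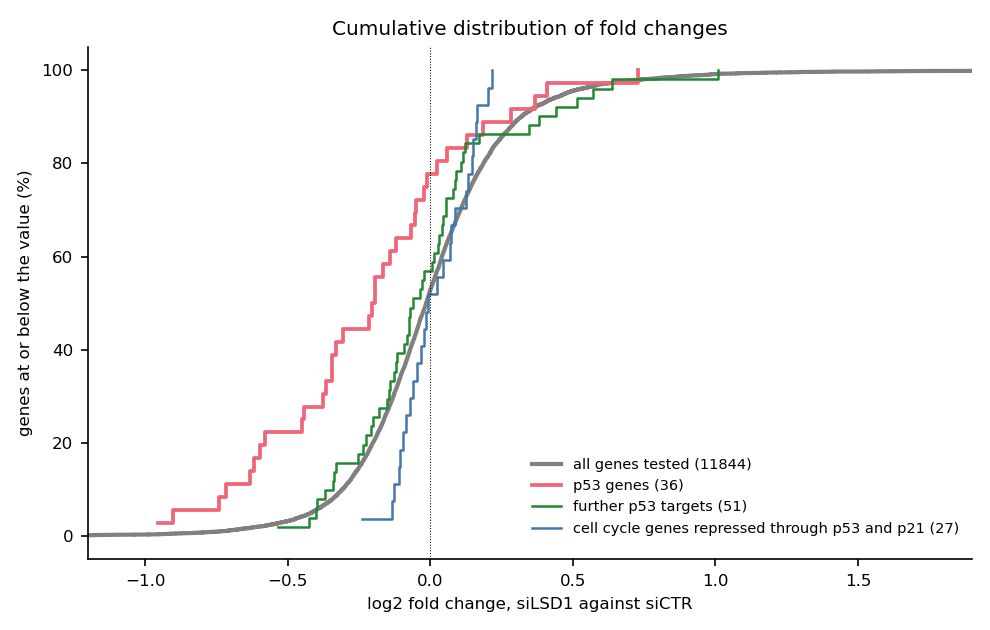
Share of genes (vertical axis, percent) at or below a log2 fold change of siLSD1 against siCTR (horizontal axis) for all genes tested and for the 3 lists named in the legend. The curve of the p53 genes lies to the left of that of all genes over most of its length, with medians of -0.20 and -0.01, and the curves of the further targets and of the cell cycle genes cross 0 near their middle, with medians of -0.06 and -0.01.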

How the data were processed

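Total RNA of 6 libraries was sequenced, and samples were grouped by their labels. Per the study's methods the authors aligned clean reads with STAR; the genome build, the annotation, the counter and whether strand was used are not given in the sources used here, so overlapping antisense genes cannot be told apart. The authors deposited read counts per gene, whole and not normalized, which were used for all tests. The FPKM values that the authors deposited, scaled to gene length and library reads, were used only to order levels between genes. The authors' deposited fold changes and p-values were not used. A second set of deposited counts, with a median ratio of 1.11 to the first, served as an alternative.

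Counts were analysed in R 4.3.3 with edgeR 4.0.16 (TMM, no covariates, quasi-likelihood test, low counts removed by filterByExpr at a minimum of 10), on 11844 of 15585 genes, and p-values were adjusted with the Benjamini-Hochberg method. SEs and 95% intervals come from the same fit. Other steps ran in Python 3.11.15 (scipy 1.17.1, pandas 2.3.3, numpy 2.4.6). Depth was 12513511 to 13561344 reads per library. All pairs of libraries differed beyond sampling noise (chi-square per gene 7.18 to 44.3) and were used as 6 samples. In counts simulated for siLSD1 against siCTR over 11844 genes, 168 of 200 genes changed by a fold of 2 were recovered (84%), with 5 false calls among 173. All tested p53 genes changed by less than a fold of 2, and the simulation held no differences shared by genes within a library. Its rates therefore do not describe the smaller changes reported here. Coordinates of genes are from GENCODE release 44 (GRCh38) and not from the authors' files.

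The members and lists were chosen with earlier results of these data known. Genes named are all members with an unadjusted p under 0.05, the lowest p of each function group, MDM2, CDKN1A, BBC3, BAX, GDF15, PPM1D and MDM4, KDM1A and CDKN2A, and from each other list the genes with an adjusted p under 0.05 or, if none, the lowest p. Some genes that the rule names or the counts include are not reported here. Other genes, such as KRT8, KRT18, SETD7 and the remaining members, were named after their values were seen. Alternatives were DESeq2 1.42.0, library size scaling, no filter, a stricter filter (1 CPM in 3 libraries), the second counts, each library left out in turn, the replicate number as a block, and a correction for GC content and length (loess, span 0.3, GENCODE values for 99.3% of the tested genes).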

Additional observations from a re-analysis of the deposited data

How the results depend on the processing

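The number of p53 genes with an adjusted p under 0.05 depended on the model. It was 3 (1 higher and 2 lower) in the reported fit, 5 with DESeq2 (1 higher and 4 lower), 6 without a filter (1 higher and 5 lower), 14 with the correction for GC content and length (3 higher and 11 lower) and 14 with a replicate block (2 higher and 12 lower), all 3 reported genes being kept in each. The genes that the block added were CCNG1, FAS, FDXR, GDF15, NINJ1, PIDD1, RPS27L, SESN1, TIGAR, TRIAP1 and XPC. Over all genes the count was 171 in the reported fit, 323 with DESeq2, 290 without a filter, 920 with the correction, 897 with the replicate block (7.57%) and 58 to 136 with 1 library left out, so the count of p53 genes moved with that of all genes. With 1 library left out the number of p53 genes was 1 to 2, and it was 1 without siCTR replicate 3 and without siLSD1 replicate 2, with CDKN1A the gene that remained. At an unadjusted p under 0.05 the number was 11 to 17 with 1 library left out, against 16, while the share of all genes was 8.86% to 14.3% in these fits, against 14.0%, and both were lowest without siLSD1 replicate 2. BTG2, CCNG1, PLK2, RPS27L and TRIAP1 lost that threshold in at least 1 of these fits and the other 11 genes kept it. The median of the p53 genes stayed between -0.24 and -0.17 and KDM1A kept its call in all alternatives. BBC3 turned to 0.12 with the correction and to 0.15 without siLSD1 replicate 3, with values of -0.39 to 0.15 over the fits with 1 library left out, and CDKN2A to 0.067 with the correction, 0.13 without siCTR replicate 2 and 0.080 without siLSD1 replicate 3, with values of -0.16 to 0.13 over these fits; the cause was not tested. The replicate numbers are not stated to mark a shared culture or day. The deviations of same-numbered libraries correlated at 0.328, 0.0744 and 0.310, and each library correlated best with its own number in the other group, as a hint from the data and not from the design. Genes with few reads, such as TIGAR, FAS and BBC3, are those for which counting error limits precision most.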
